A study of Mus musculus with 8 samples.

Results

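The genes described here are 10 feedback genes of ERK signalling: the phosphatase genes Dusp4, Dusp5 and Dusp6, the Sprouty genes Spry1, Spry2 and Spry4, the Spred genes Spred1, Spred2 and Spred3, and Phlda1. They were taken from the deposited expression table by gene symbol, and all 10 were found, each as 1 row, among 34586 symbols. RNA was sequenced from 8 cecal tumors of C57BL/6 mice, of which 4 had received vehicle and 4 tamoxifen. They model gastrointestinal stromal tumor (GIST), a sarcoma of the lineage of the interstitial cells of Cajal, which pace gut contractions. Mice of both groups were Kit V558Delta/+, an activating allele that drives the tumors, and Etv1 flox/flox, so that Cre can excise part of each Etv1 copy. They also carried Rosa26 CreERT2/CreERT2, a Cre that is switched on by tamoxifen and made from the broadly active Rosa26 locus. The comparison addresses the effect of deleting Etv1 on tumor RNA. The Cre is not limited to tumor cells, and tamoxifen itself and the loss of Etv1 cannot be told apart in this design. Dose, time after treatment and age were not stated in the sources used here.

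ERK is the last kinase of the cascade that runs from receptor tyrosine kinases such as Kit through Ras, Raf and Mek. Active ERK switches on genes whose products dampen the cascade, so that the RNA of these genes is widely read as a gauge of ERK output. DUSP proteins remove phosphate from ERK itself, Sprouty proteins act between the receptor and Raf, and Spred proteins bring the Ras inhibitor neurofibromin to the membrane. In GIST, mutant Kit drives this cascade and Etv1 is a lineage transcription factor whose protein is stabilised by ERK.

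Values are FPKM, which scales fragment counts by transcript length and by library size, so that levels can be compared between genes. A total of 15023 genes with a mean of at least 1 FPKM were compared between the groups with limma on log2(FPKM + 1), and all 10 feedback genes were among them. This scale slightly understates the change of low genes. Of the 15023 genes, 819, or 5.45%, differed at an adjusted p under 0.05, 358 higher and 461 lower. With every library scaled to the same total FPKM the split was 154 higher and 75 lower. Absolute read depth is unknown, and each library had 14176 to 14841 symbols at 1 FPKM or more. Whether each replicate is a different mouse is not stated, so the p-values reflect only the spread between these samples. The targeted gene, Etv1, measured 34.6, 51.1, 40.4 and 38.6 FPKM in vehicle replicates 1 to 4, and 34.9, 19.7, 31.4 and 17.4 FPKM in tamoxifen replicates 1 to 4. It was lower in 3 of the 4 tamoxifen libraries than in any vehicle library and did not pass the test (limma adjusted p = 0.13; 0.049 with libraries weighted by quality). The row pools all its exons, whether or not they lie in the deleted segment. The defining GIST markers were present in every library: Kit at 385.6 FPKM or more, Ano1 at 371.8 or more, Gpr20 at 69.8 or more and Prkcq at 25.8 or more.

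In limma, 0 of the 10 feedback genes passed the threshold, against 5.45% of all tested genes (3.07% lower and 2.38% higher after tamoxifen). At an unadjusted p under 0.05 there were 5 of 10, against 22.4% of all tested genes. Of these, 4 were lower after tamoxifen (Dusp6, Spry4, Spred1 and Spred2, against 11.5% of all tested genes) and 1 was higher (Spred3, against 10.9%). The log2 fold change was negative for 7 genes and positive for 3, with a median of -0.11, against 0.005 over all tested genes. The groups did not overlap for 2 of 10 genes, Spred1 and Spred2, both lower after tamoxifen, where 7.74% of all tested genes were lower without overlap. No gene of the 10 was higher without overlap, against 7.37% of all tested genes. The estimates ran from -0.70 for Spry4 to 0.63 for Spred3 on the log2 scale, and the difference between these 2 genes was not tested.

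**Figure D1:**
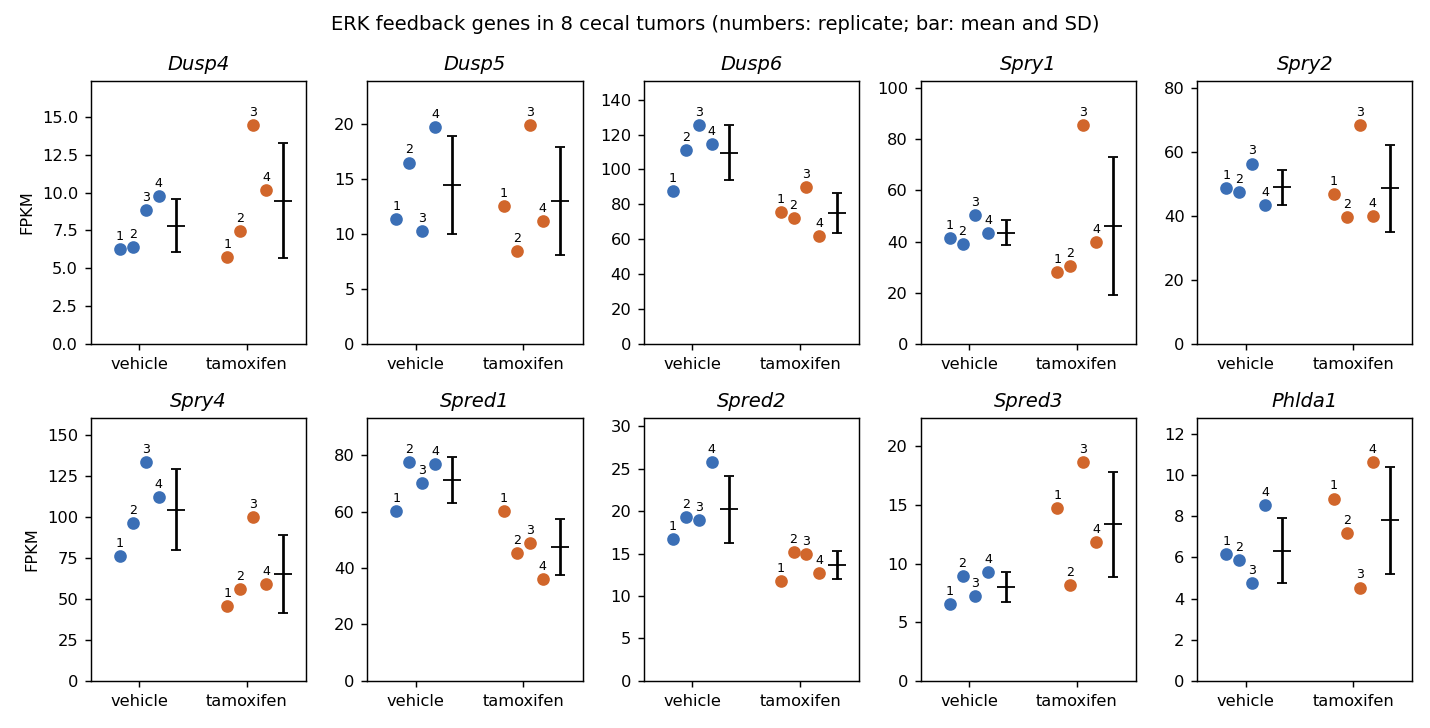
FPKM of each of the 10 feedback genes in every library (y axes start at 0 and differ between panels), with points numbered by replicate and a bar for the group mean and SD. Spred1 and Spred2 are separate between groups, Dusp6 and Spry4 overlap through tamoxifen replicate 3, and tamoxifen replicate 3 is the highest library for Dusp4, Dusp5, Spry1, Spry2 and Spred3.

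Among the phosphatases, Dusp6, which acts on ERK in the cytoplasm, had the highest mean of all 10 genes in both groups. It measured 87.9, 110.9, 125.5 and 114.3 FPKM in vehicle replicates 1 to 4 and 75.7, 72.0, 89.7 and 62.1 FPKM in tamoxifen replicates 1 to 4. The 3 tamoxifen libraries other than replicate 3 lay below every vehicle library, and replicate 3 lay just above vehicle replicate 1. The tamoxifen mean was 74.9 ± 11.4 FPKM and the vehicle mean 109.6 ± 15.8 FPKM (SD, n = 4 each), a difference of -31.7%. On the log2 scale the change was -0.54 (SE 0.16, 95% interval -0.90 to -0.19, limma adjusted p = 0.0806). Dusp6 passed only with libraries weighted by their quality (limma adjusted p = 0.0494). The gene (ENSMUSG00000019960) spans chromosome 10, 98725865 to 98730122, in mm9, the build of all loci given from the table.

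Dusp5, a nuclear phosphatase selective for ERK, showed no such separation. It measured 11.4, 16.5, 10.2 and 19.7 FPKM in the vehicle replicates and 12.6, 8.45, 19.9 and 11.2 FPKM in the tamoxifen replicates. Both groups covered nearly the same range, and the log2 fold change was -0.16 (95% interval -0.80 to 0.48). Dusp4, a nuclear phosphatase with a wider range of MAP kinase substrates, measured 6.27, 6.40, 8.86 and 9.76 FPKM in vehicle and 5.75, 7.48, 14.5 and 10.1 FPKM in tamoxifen tumors. The tamoxifen group held both the lowest value, in replicate 1, and the highest, in replicate 3. The log2 fold change of Dusp4 was 0.20 (95% interval -0.40 to 0.80), and without tamoxifen replicate 3 it was -0.01. Neither Dusp4 nor Dusp5 passed (limma adjusted p = 0.696 and 0.778). Dusp4 (ENSMUSG00000031530) lies on chromosome 8, 35870351 to 35882948, and Dusp5 (ENSMUSG00000034765) on chromosome 19, 53603599 to 53616921.

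None of the Sprouty genes passed the test, and only for Spry4 did the unadjusted interval lie to 1 side of 0. Spry4, an inhibitor of growth factor signals upstream of Raf, measured 75.8, 96.4, 133.6 and 111.9 FPKM in vehicle and 45.7, 56.0, 100.1 and 59.1 FPKM in tamoxifen replicates 1 to 4. Tamoxifen replicates 1, 2 and 4 lay below every vehicle library, and replicate 3 lay within the vehicle range. Its log2 fold change was -0.70 (SE 0.26, 95% interval -1.30 to -0.11, limma adjusted p = 0.156). Without tamoxifen replicate 3 it was -0.93 and passed (limma adjusted p = 0.046). Spry4 (ENSMUSG00000024427) lies on chromosome 18, 38745922 to 38760922.

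Spry1, which is also induced by receptor tyrosine kinases, measured 41.5, 39.1, 50.4 and 43.2 FPKM in vehicle and 28.1, 30.6, 85.6 and 39.9 FPKM in tamoxifen tumors. Tamoxifen replicates 1 and 2 lay below the vehicle range and replicate 3 far above it, so the coefficient of variation was 11.2% in the vehicle and 58.3% in the tamoxifen group. The means were close, at 43.6 ± 4.86 and 46.1 ± 26.8 FPKM (SD, n = 4 each), and the log2 fold change was -0.06 (95% interval -0.79 to 0.67). Without tamoxifen replicate 3 the log2 fold change of Spry1 was -0.41 (limma adjusted p = 0.162). Spry2, which binds the ubiquitin ligase Cbl, measured 48.7, 47.5, 56.4 and 43.5 FPKM in vehicle and 47.0, 39.6, 68.5 and 40.0 FPKM in tamoxifen tumors. Its tamoxifen values lay on both sides of the vehicle range, with a log2 fold change of -0.04 (95% interval -0.46 to 0.39). Spry1 (ENSMUSG00000037211) lies on chromosome 3, 37538869 to 37543520, and Spry2 (ENSMUSG00000022114) on chromosome 14, 106291166 to 106296036. Both had a limma adjusted p of 0.927.

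None of the Spred genes passed the test, the estimates being negative for Spred1 and Spred2 and positive for Spred3, a contrast that was not tested. Spred1, an adaptor that recruits neurofibromin and can bind Kit, measured 60.2, 77.7, 70.1 and 76.9 FPKM in vehicle and 60.0, 45.3, 48.9 and 36.1 FPKM in tamoxifen tumors. The groups only just separated, since tamoxifen replicate 1 lay barely below vehicle replicate 1. A log2 fold change of -0.59 was estimated (SE 0.17, 95% interval -0.97 to -0.21, limma adjusted p = 0.0797, exact permutation p of FPKM = 0.0286, the smallest that 70 arrangements allow). Spred1 passed with libraries weighted by quality (limma adjusted p = 0.0379) and without tamoxifen replicate 1 (0.0493).

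Spred2, which likewise recruits neurofibromin, measured 16.7, 19.3, 18.9 and 25.8 FPKM in vehicle and 11.8, 15.2, 15.0 and 12.7 FPKM in tamoxifen tumors. Every tamoxifen library lay below every vehicle library, with a clearer gap than for Spred1. Its log2 fold change was -0.52 (SE 0.15, 95% interval -0.87 to -0.17, limma adjusted p = 0.0861, exact permutation p = 0.0286). An exact permutation p under 0.05 was found for 15.1% of the 14975 genes with no missing value. Spred2 passed in none of the 18 alternatives run, with limma adjusted p of 0.0565 to 0.614. Spred1 (ENSMUSG00000027351) lies on chromosome 2, 116947110 to 117008015, and Spred2 (ENSMUSG00000045671) on chromosome 11, 19824378 to 19924029.

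Spred3, the family member whose Kit-binding domain is not functional, was the one Spred gene with a positive change. It measured 6.59, 8.91, 7.24 and 9.27 FPKM in vehicle and 14.8, 8.16, 18.7 and 11.8 FPKM in tamoxifen tumors. Tamoxifen replicates 1, 3 and 4 lay above every vehicle library and replicate 2 within the vehicle range. Spred3 had a log2 fold change of 0.63 (SE 0.23, 95% interval 0.10 to 1.16, limma adjusted p = 0.154). Phlda1, a pleckstrin homology domain protein induced by growth factor signals, had the lowest mean of the 10 genes in both groups. It measured 6.16, 5.88, 4.77 and 8.54 FPKM in vehicle and 8.87, 7.19, 4.54 and 10.7 FPKM in tamoxifen tumors. The groups overlapped (log2 fold change 0.24, 95% interval -0.33 to 0.80), and tamoxifen replicate 3, the highest library for 5 of the other genes, was the lowest for Phlda1. Spred3 (ENSMUSG00000037239) lies on chromosome 7, 29943848 to 29954860, and Phlda1 (ENSMUSG00000020205) on chromosome 10, 110943342 to 110945705.

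**Figure D2:**
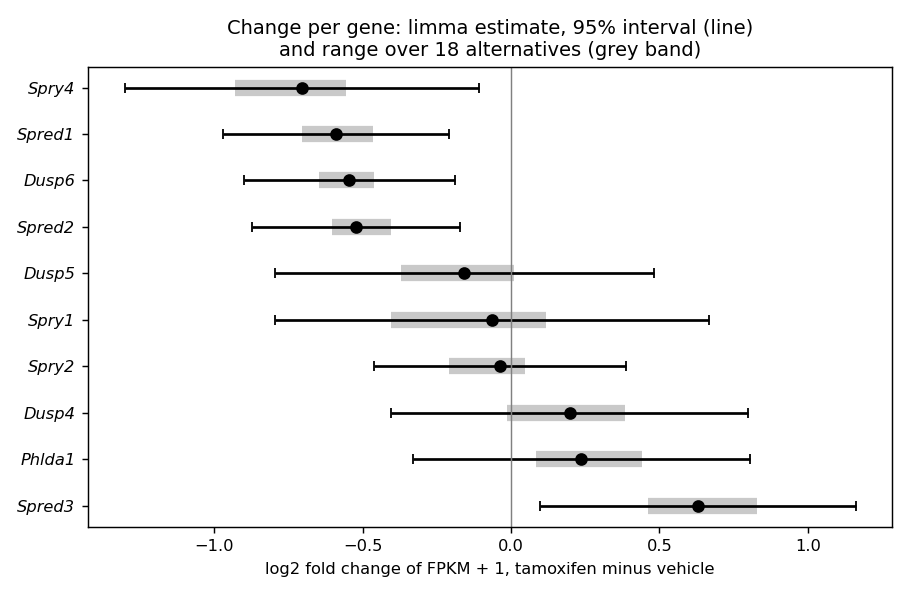
Log2 fold change of FPKM + 1, tamoxifen minus vehicle, for each of the 10 genes: points are limma estimates, black lines 95% intervals and grey bands the range over 18 alternative settings. The unadjusted intervals of Spry4, Spred1, Dusp6 and Spred2 lie below 0 and that of Spred3 above 0, and the grey bands of Spry1, Spry2, Dusp4 and Dusp5 cross 0.

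Promoters are shown for Dusp6, Spred1 and Spred2, the 3 genes with a promoter searched among the 4 whose unadjusted interval lay below 0. Promoters were searched because Etv1 is an ETS factor and ETS factors bind DNA around a GGAA core. Promoters in the table ran from 250 bases before to 50 bases after a start site, and those of 7 of the 10 genes were searched. Dusp4, Spry4 and Phlda1 were not searched, so nothing is said here of their promoters. The sequences are from RefSeq in build GRCm38.p6, not the build of the expression table. Each line gives the 250 bases before the start site, 5′ to 3′ on the strand of the gene, with CGGAA on either strand (CGGAA or TTCCG) in capitals.
Dusp6: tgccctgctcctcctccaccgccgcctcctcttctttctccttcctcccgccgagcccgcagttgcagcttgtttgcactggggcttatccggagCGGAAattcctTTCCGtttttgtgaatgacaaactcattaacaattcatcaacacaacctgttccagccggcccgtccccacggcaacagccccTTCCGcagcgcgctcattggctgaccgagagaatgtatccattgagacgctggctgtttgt
Spred1: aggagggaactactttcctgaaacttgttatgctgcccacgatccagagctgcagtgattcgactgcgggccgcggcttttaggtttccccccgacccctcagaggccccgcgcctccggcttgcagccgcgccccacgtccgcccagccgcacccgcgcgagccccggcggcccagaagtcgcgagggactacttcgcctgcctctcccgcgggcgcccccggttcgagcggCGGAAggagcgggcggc
Spred2: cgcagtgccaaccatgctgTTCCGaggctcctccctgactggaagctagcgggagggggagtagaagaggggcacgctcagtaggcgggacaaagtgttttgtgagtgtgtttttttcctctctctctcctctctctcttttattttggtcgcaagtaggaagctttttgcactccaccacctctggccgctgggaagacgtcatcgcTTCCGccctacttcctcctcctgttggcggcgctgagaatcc
The window shown for Dusp6 lies on the plus strand at chr10:99262981-99263230, that for Spred1 on the plus strand at chr2:117120821-117121070, and that for Spred2 on the plus strand at chr11:19924192-19924441. A longer ETS motif, CCGGAAG, was found on neither strand in any of the 7 windows, nor were the AP-1 motif TGANTCA or the CRE motif TGACGTCA. Over all 32851 promoters in the table, 8.86% held CCGGAAG, 7.81% TGANTCA and 1.79% TGACGTCA. The 5-letter core CGGAA, which is contained in CCGGAAG and was added after the first search, was found 3 times for Dusp6 and 2 times each for Spred1 and Spred2. It was found 1 time each for Dusp5 and Spry2 and 0 times for Spry1 and Spred3. These counts cover the whole window: for Spred1, 1 of the 2 matches lay after the start site, outside the line shown. The Spry2 match also lay after the start site. Of all promoters in the table, 29.9% held CGGAA. These are matches of letters, and no binding was measured.

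The 10 genes spanned a wide range of levels, with Dusp6 and Spry4 first and Phlda1 last by mean in both groups. In tamoxifen tumors Dusp4 was above Phlda1 in only 2 of 4 libraries. In vehicle tumors Dusp6 and Spry4 (104.4 ± 24.4 FPKM, SD, n = 4) led and did not differ beyond their spread. They were followed by Spred1 (71.2 ± 8.09 FPKM), whose range overlapped that of Spry4, then by Spry2 and Spry1, whose ranges overlapped. Spred2 (20.2 ± 3.93 FPKM) overlapped in range with Dusp5 (14.4 ± 4.44 FPKM), and Spred3, Dusp4 and Phlda1 formed a last group with overlapping ranges. Ranges of neighbours were separate between Spred1 and Spry2, between Spry1 and Spred2, and between Dusp5 and Spred3. In tamoxifen tumors the only separate neighbours were Spry1 (46.1 ± 26.8 FPKM) and Spred2 (13.7 ± 1.70 FPKM). There Spred3 (13.4 ± 4.47 FPKM) stood beside Spred2 and Dusp5 (13.0 ± 4.89 FPKM).

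Dusp6 and Spry4 together held 45.3%, 48.4%, 53.3% and 48.9% of the summed FPKM of the 10 genes in vehicle replicates 1 to 4. In tamoxifen replicates 1 to 4 they held 39.1%, 44.2%, 40.8% and 41.3%, each below the lowest vehicle share. This sum was chosen after the values were seen and was not tested. The summed FPKM of the 10 genes was 361.2 to 486.0 in vehicle tumors, and 310.2, 289.9, 465.2 and 293.6 in tamoxifen replicates 1 to 4, so 3 of the 4 tamoxifen sums lay below the vehicle range.

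**Figure D3:**
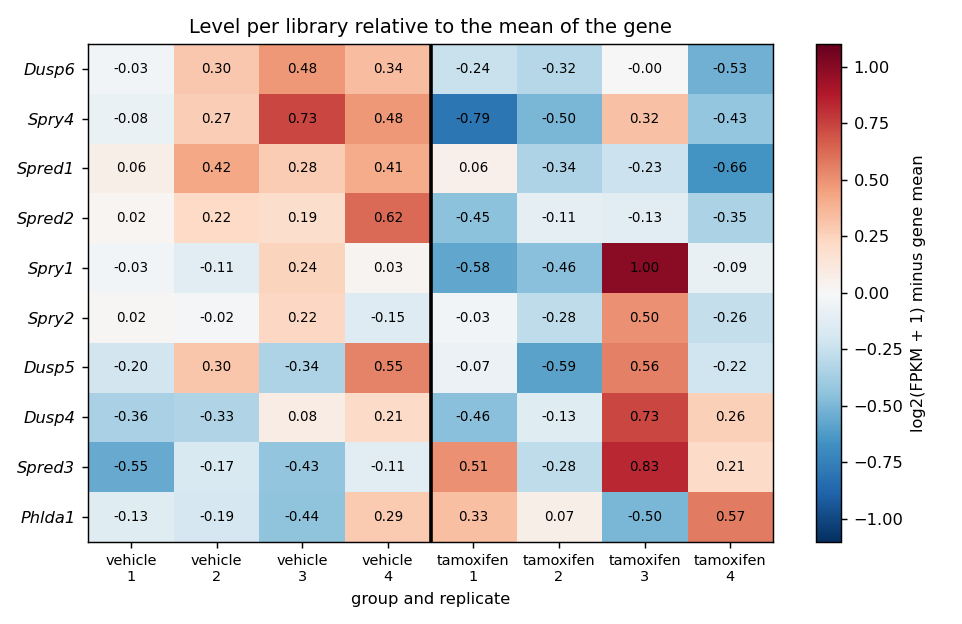
Level of each gene in each library as log2(FPKM + 1) minus the mean of the gene over the 8 libraries, with vehicle libraries left and tamoxifen libraries right of the black line. The upper 4 genes are mostly above their mean in vehicle and below it in tamoxifen tumors, and the column of tamoxifen replicate 3 holds the highest values of Spry1 (1.00), Spred3 (0.83) and Dusp4 (0.73).

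Tamoxifen replicate 3 stood apart for these genes. It was the highest of the 8 libraries for Dusp4, Dusp5, Spry1, Spry2 and Spred3 and the lowest for Phlda1. The summed level of 5 GIST markers (Kit, Ano1, Gpr20, Etv1 and Prkcq) was 1309 FPKM in this library, against 919.9 to 970.0 in the other 3 tamoxifen libraries and 1154 to 1715 in vehicle tumors. Its summed level of 8 intestinal epithelium markers was 925.8 FPKM, the lowest of the tamoxifen group (925.8 to 2211) and above the vehicle range (455.8 to 739.9). Its 5 squamous and 5 neutrophil markers summed to 29.3 and 177.9 FPKM, also the lowest sums of their group. The neutrophil sum followed Ly6g (97.9 FPKM, against 157.6 to 169.8 in the other tamoxifen libraries). S100a8, S100a9, Retnlg and Cxcr2 were instead lowest of the group in tamoxifen replicate 1. Of the squamous markers, Anxa8 and Krt14 were lowest in replicate 3, Krt5 and Trp63 in replicate 1 and Sprr2h in replicate 2. The part of these markers in the values of the 5 genes was not tested.

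Other cell type markers differed between the groups beside the feedback genes, and none of the listed markers found in the table was at 0 in all libraries. The 8 epithelial markers, all at a mean of 1 FPKM or more, and the 5 neutrophil markers, 4 of them at that level, had higher sums in every tamoxifen than in any vehicle library (neutrophil markers 5.02 to 20.4 FPKM in vehicle and 177.9 to 465.2 in tamoxifen tumors). The same was true of the 5 squamous markers (1.78 to 5.52 and 29.3 to 60.2 FPKM), of which Krt5, Krt14 and Trp63 stayed under a mean of 1 FPKM. It was also true of the 4 endothelial markers (26.7 to 38.4 and 42.3 to 61.6 FPKM). Taken singly, the epithelial markers Krt8, Krt18, Krt19 and Krt20 did not overlap between groups, while Epcam, Cdh1, Vil1 and Cdx2 did. Of the endothelial markers, Pecam1 and Tek did not overlap, while Cdh5 and Kdr did. The 6 T and NK cell markers had lower sums in every tamoxifen library (148.7 to 214.4 FPKM in vehicle and 75.6 to 102.8 in tamoxifen tumors). Sums overlapped for macrophage (281.9 to 426.9 and 252.2 to 557.5 FPKM), fibroblast (123.8 to 203.9 and 176.0 to 756.2 FPKM) and smooth muscle markers (94.5 to 193.1 and 136.9 to 198.9 FPKM). In such bulk tumors fewer cells of a type and less RNA per cell cannot be told apart.

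Ratios within a library compare genes, and the scaling of the library enters them only through the 1 added to each FPKM. The Spry4 to Spry2 ratio, as a difference of log2(FPKM + 1), was 0.63, 1.01, 1.23 and 1.34 in vehicle replicates 1 to 4 and -0.04, 0.49, 0.54 and 0.55 in tamoxifen replicates 1 to 4. The Spry4 to Spry1 ratio was 0.85, 1.28, 1.39 and 1.35 in vehicle and 0.68, 0.85, 0.22 and 0.55 in tamoxifen tumors. On this scale both ratios were lower in every tamoxifen than in any vehicle library (mean differences -0.67 and -0.64). For Spry1 the nearest values of the groups were equal to 2 decimals, and the separation rests on the added 1. As plain FPKM, Spry4 to Spry1 was 75.81 to 41.52 in vehicle replicate 1 and 56.03 to 30.58 in tamoxifen replicate 2. The tamoxifen ratio of these is slightly the larger, so the plain ratios overlapped between groups. Both log2 ratios had an exact 2-sided permutation p of 0.0286, the smallest possible, and 0.1 after adjustment over the 7 ratios compared. With 0.25 FPKM added instead of 1, the exact permutation adjusted p was 0.133 for both. Neither passed, but with that smallest p none of the 7 can pass unless most of them separate fully. The Dusp6 to Dusp4 ratio was 3.66 ± 0.20 in vehicle and 2.92 ± 0.48 in tamoxifen libraries (SD, n = 4 each), a mean difference of -0.74 (exact permutation p = 0.0571, adjusted p = 0.133). The Dusp6 to Dusp5 ratio (mean difference -0.39, exact permutation adjusted p = 0.45) and the Spred2 to Spred1 ratio (mean difference 0.07, exact permutation adjusted p = 0.8) overlapped between groups.

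The level of Dusp6 relative to tumor lineage genes overlapped between groups. Against the mean log2 level of Kit, Ano1 and Gpr20, Dusp6 stood at -1.81, -1.88, -1.79 and -1.80 in vehicle replicates 1 to 4 and at -1.58, -1.63, -1.94 and -1.89 in tamoxifen replicates 1 to 4. The vehicle values lay within the tamoxifen range, with a mean difference of 0.06 (exact permutation p = 0.486, adjusted p = 0.667). Spry4 stood at -1.91 ± 0.18 in vehicle and -2.01 ± 0.21 in tamoxifen libraries (SD, n = 4 each), a mean difference of -0.10 (exact permutation p = 0.571, adjusted p = 0.667). Of the lineage genes, Kit was 447 ± 82.0 FPKM in tamoxifen and 760 ± 161 FPKM in vehicle tumors (limma adjusted p = 0.0674). Gpr20 had a log2 fold change of -0.78 (limma adjusted p = 0.0785) and Ano1 one of -0.27 (0.396). Prkcq, a GIST marker that was not part of the ratio, had a log2 fold change of 0.02 (36.2 ± 8.25 FPKM in vehicle and 36.8 ± 8.01 FPKM in tamoxifen libraries, limma adjusted p = 0.965).

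**Figure D4:**
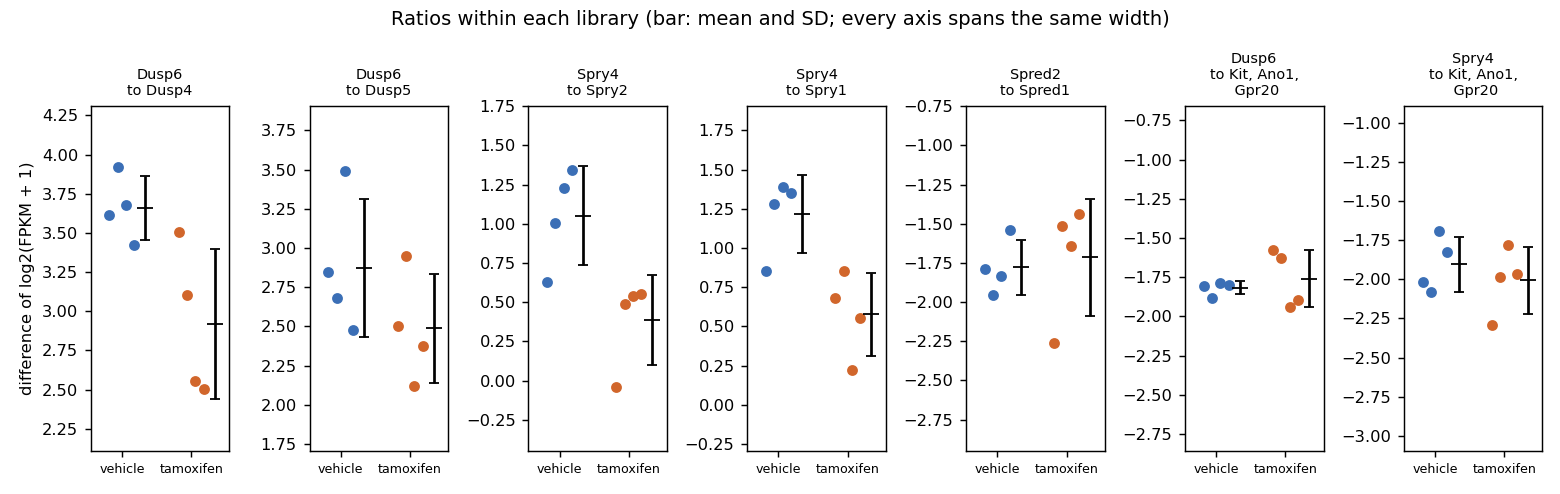
Ratios within each library as differences of log2(FPKM + 1), with 1 point for each of 4 vehicle and 4 tamoxifen libraries and a bar for the group mean and SD; all axes span the same width. Spry4 to Spry2 and, only just and on this scale, Spry4 to Spry1 are lower in every tamoxifen library. Dusp6 and Spry4 relative to Kit, Ano1 and Gpr20 overlap between groups.

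The sample identifiers fall into a lower range (vehicle replicates 1 to 3, tamoxifen replicates 1 and 2) and an upper range (vehicle replicate 4, tamoxifen replicates 3 and 4), whose meaning is not given. Within both ranges the mean log2 difference was negative for Dusp6 (-0.53 in the lower and -0.61 in the upper range), Spry4 (-0.96 and -0.54), Spred1 (-0.40 and -0.86), Spred2 (-0.42 and -0.86) and Dusp5 (-0.25 and -0.38). It was positive in both for Spred3 (0.50 and 0.63). Spry1 (-0.55 and 0.43), Spry2 (-0.23 and 0.26), Dusp4 (-0.10 and 0.29) and Phlda1 (0.45 and -0.25) differed in sign between the ranges. The upper range holds 1 vehicle library, so these values carry no test.

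Other genes of the pathway were counted from 3 lists, to be read against the 5.45% of all tested genes that were called (2.38% higher and 3.07% lower) and their median of 0.005. Of 22 tested genes for adaptors, Ras regulators, Ras, Raf, Mek, Erk and Rsk kinases, 0 rose, 2 fell and 20 did not pass, the median change being 0.07 on the log2 scale. Both genes that fell encode adaptors that link receptor tyrosine kinases to Ras. Shc1 measured 82.4, 125.4, 124.6 and 202.2 FPKM in vehicle and 34.7, 44.4, 61.4 and 48.2 FPKM in tamoxifen tumors (log2 fold change -1.44, SE 0.28, limma adjusted p = 0.0247). Grb2 measured 65.0, 80.9, 74.7 and 111.0 FPKM in vehicle and 32.3, 47.9, 49.7 and 44.8 FPKM in tamoxifen tumors (log2 fold change -0.90, SE 0.20, limma adjusted p = 0.0396). Neither gene overlapped between groups. Leaving out 1 library in turn kept Shc1 past the threshold in 3 of 8 fits (limma adjusted p up to 0.0702, without vehicle replicate 3). Grb2 was kept in 2 of 8 (up to 0.0962, without vehicle replicate 2). In these fits the log2 fold change stayed at -1.645 to -1.217 for Shc1 and at -1.006 to -0.752 for Grb2.

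Of 10 tested genes for other MAP kinase phosphatases and feedback proteins, 1 rose (against 2.38% of all tested genes) and 9 did not pass, the median change being -0.10 on the log2 scale. The gene that rose was Errfi1, a feedback inhibitor of the EGF receptor. It measured 7.22, 9.87, 9.37 and 5.38 FPKM in vehicle and 22.6, 23.3, 19.5 and 14.05 FPKM in tamoxifen tumors (log2 fold change 1.23, SE 0.22, limma adjusted p = 0.0196), with no overlap. Its call was kept in 6 of 8 fits that left out 1 library, and lost without vehicle replicate 1 (limma adjusted p = 0.0522) and tamoxifen replicate 2 (0.0557). The locus of Errfi1 overlaps that of the pseudogene Rps15a-ps3 (1.76 FPKM). Dusp9 and Spry3, at means of 0.298 and 0.344 FPKM, were too low to be tested.

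Of 9 tested ERK-induced genes, 2 rose (against 2.38% of all tested genes), 1 fell (against 3.07%) and 6 did not pass, the median change being 0.21 on the log2 scale. Fos, an immediate early transcription factor, measured 5.83, 5.49, 3.90 and 3.83 FPKM in vehicle and 17.5, 11.7, 7.09 and 16.9 FPKM in tamoxifen tumors (log2 fold change 1.25, SE 0.27, limma adjusted p = 0.0378). Myc, a transcription factor of growth, measured 9.82, 9.69, 9.39 and 9.27 FPKM in vehicle and 11.9, 16.3, 17.7 and 17.0 FPKM in tamoxifen tumors (log2 fold change 0.65, SE 0.13, limma adjusted p = 0.0326). Ccnd1, which encodes cyclin D1, measured 36.0, 31.1, 46.4 and 40.4 FPKM in vehicle and 11.6, 12.5, 13.8 and 30.4 FPKM in tamoxifen tumors (log2 fold change -1.22, SE 0.29, limma adjusted p = 0.0485). Groups did not overlap for any of these genes, but each call was kept in only 1 of 8 fits that left out 1 library, with limma adjusted p up to 0.109 for Fos, 0.0948 for Myc and 0.133 for Ccnd1, all without vehicle replicate 3. The locus of Ccnd1 overlaps that of Oraov1 (18.6 FPKM). The epithelial and neutrophil marker sums given above were higher in the same libraries as Errfi1, Fos and Myc, and their part was not tested.

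Genes with the profile most like that of Dusp6 were found by the root mean square difference of centred log2(FPKM + 1) over the 8 libraries, among 14974 other genes. They were Oat, a mitochondrial aminotransferase (0.0947), Msrb3, a methionine sulfoxide reductase (0.117), and Slc39a6, a zinc transporter (0.118). Oat measured 175.4 FPKM in vehicle replicate 1 and 203.7 to 250.1 in the other vehicle tumors, against 120.2 to 165.8 FPKM in tamoxifen tumors. The row of Oat spans 22 other genes at 1 FPKM or more, so its value is uncertain. None of the 3 passed the test (limma adjusted p = 0.0679, 0.093 and 0.147), although with libraries weighted by quality Oat and Msrb3 did (0.0438 and 0.0457). Among the feedback genes, Spred1 was the most like Dusp6 (difference 0.17, rank 89), followed by Spred2 (0.194, rank 200) and Spry4 (0.26, rank 1208), while Dusp4 was far from it (0.489, rank 10006).

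For Spry4 the most similar genes were Ccnd3, which encodes cyclin D3 (0.116), the ubiquitin ligase gene Rnf157 (0.126) and Disp1, which is needed to release Hedgehog ligands (0.141). Ccnd3 measured 81.2, 86.8, 105.7 and 97.5 FPKM in vehicle and 42.2, 49.6, 85.8 and 55.6 FPKM in tamoxifen tumors. Under the settings used throughout, none of these 3 passed (limma adjusted p = 0.0943, 0.066 and 0.0596). Since they were chosen for their likeness to Spry4 over these libraries, their values are a description. They passed in 2, 4 and 4 of the 18 alternatives. The locus of Ccnd3 overlaps that of Bysl (5.37 FPKM). Dusp6 was the feedback gene most like Spry4 (difference 0.26, rank 157) and Spry2 stood further away (0.423, rank 2531).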

How the data were processed

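RNA sequencing of 8 cecal tumors was used, grouped and numbered by their titles. Trizol homogenates were column-purified to total RNA, per the labels' protocols. The authors deposited gene-level FPKM with a status beside each value, 1 column for each library, per the file headers. STAR 2.3, Cufflinks, Cuffdiff and the mm9 build are named in the submitters' processing notes, but not the role of each tool, the annotation or the handling of multi-mapping reads. All 8 columns were matched by the identifier in the sample description.

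A total of 178 failed values, none of them in the feedback genes, were treated as missing, and the 37980 rows were summed to 34586 symbols. Genes with a mean of at least 1 FPKM and at least 2 estimates in each group entered limma 3.58.1 (R 4.3.3) on log2(FPKM + 1), with a mean-variance trend, 2-sided, and Benjamini-Hochberg adjustment over all 15023 genes at a threshold of 0.05. Single values and ratios were compared by exact 2-sided permutation over 70 arrangements. The fit was checked on simulated data. Named genes were the 10 feedback genes, Etv1, the called genes of each pathway list (or the 2 with the smallest p where none was called), and the 3 nearest profiles of Dusp6 and Spry4. The loci of the 10 feedback genes overlap no other row. The feedback genes and lists were chosen with earlier results of these data known. Of the pathway lists, Hras had no row under that symbol, and Dusp9, Spry3 and Fosl1 were below the minimum.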

Additional observations from a re-analysis of the deposited data

Results flagged for a closer look

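A total of 86 groups of 4 values were screened for 1 library far from the other 3, and 4 were marked, where chance marks about 1 group in 20. Gpr20 measured 136.0 FPKM in tamoxifen replicate 3, far above the other tamoxifen libraries (69.8 to 80.3 FPKM). The summed level of the 5 GIST markers was 1309 FPKM in the same library, against 970.0 FPKM or less in the other tamoxifen libraries. Ccnd1 measured 30.4 FPKM in tamoxifen replicate 4, against 11.6 to 13.8 FPKM in the others of its group. The Spry4 to Spry2 ratio was -0.041 in tamoxifen replicate 1, against 0.49 to 0.55 in the others.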

How the results depend on the processing

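Over 18 alternatives, 167 of 180 results for the 10 feedback genes kept their direction and stayed on the same side of the threshold, 4 passed it and 9 changed sign. Those that changed sign were all near 0: Spry2 was 0.024 with scaling to the same total, and leaving out 1 library gave -0.014 to 0.385 for Dusp4, -0.370 to 0.0116 for Dusp5, -0.405 to 0.119 for Spry1 and -0.210 to 0.0488 for Spry2. The number of feedback genes called, all of them lower, was 2 with libraries weighted by quality and 0 to 1 when leaving out 1 library; 0 were called higher in any of these fits. Leaving out 1 library gave 268 to 856 genes called, 103 to 420 higher and 160 to 436 lower. The counts were 304 (130 higher, 174 lower) without a filter, 534 (207 higher) with a mean of at least 5 FPKM, and 229 (154 higher, 75 lower) with scaling to the same total; 569 were higher with quality weights. With the replicate block they were 252 (113 higher, 139 lower). The labels do not pair the replicate numbers, and the deviations of same-numbered libraries correlated at -0.156 to 0.145. Not every library correlated best with its own number, and the block passed none of the feedback genes. No ratio could pass with the block, since exchanging groups within 4 numbered pairs gives too few arrangements for a p under 0.05. In the cascade list 0 genes were called without a filter, 0 with the same total, 1 with the replicate block and 0 to 3 when leaving out 1 library. In the list of other feedback genes 0 were called without a filter, 0 with the same total, 2 with quality weights, 2 in a robust fit, 3 with the identifier range as a covariate and 0 to 2 when leaving out 1 library. Among ERK-induced genes 0 were called without a filter, 1 with the same total, 0 with the replicate block and 0 to 1 when leaving out 1 library. No ratio passed in any alternative, but adjustment over the 7 ratios lets none pass unless most of them separate fully. Of the ratios, leaving out 1 library gave -0.003 to 0.117 for Dusp6 to lineage genes and -0.026 to 0.247 for Spred2 to Spred1. The cause of these differences was not tested. Absolute depth is unknown, and 4 libraries in each group limit the precision.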
